A study of Mus musculus with 6 samples.

Results

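The genes described here encode the proteins of the cytosolic ribosome. They were taken by name: every feature with a symbol of Rpl or Rps, a number and the usual short endings, together with Rplp0, Rplp1, Rplp2 and Rpsa, that held at least 100 UMIs (unique molecular identifiers, each standing for 1 captured transcript) over all libraries. Of 31053 features, 83 met the naming rule and 81 reached the UMI minimum, 32 in the small and 49 in the large subunit. The tissue-restricted paralogs Rpl10l and Rpl3l, with 5 and 21 UMIs, fell short. The 81 genes lie on 19 chromosomes and held 29947955 of the 156055938 UMIs, or 19.2%.

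The data are 3′ single cell RNA-seq of mouse splenic cells that were sorted 8 days after immunization with sheep red blood cells and are labelled GC B cells. There were 3 libraries from Cgamma1-Cre WT Control mice (WT) and 3 from Cgamma1-Cre Smc3 +/- mice, which lack 1 copy of the cohesin ring gene Smc3. Both groups carry Cγ1-Cre, which acts in B cells that enter the germinal center (GC) reaction, so other cells in the Smc3 +/- libraries need not carry the deletion. The Smc3 allele is a floxed exon 4, the age of the mice is not given in the sources used here, and libraries were treated as separate mice, so the p-values below measure the spread between 6 libraries.

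Ribosomal proteins are made in matched amounts and assembled with ribosomal RNA in the nucleolus into a small subunit, which decodes mRNA, and a large subunit, which joins amino acids. Their mRNAs are among the most abundant in any cell and begin with a run of pyrimidines, the 5′ terminal oligopyrimidine (TOP) motif, through which mTORC1 and the RNA-binding protein LARP1 set their translation and stability. In the GC, B cells divide in the dark zone as centroblasts (CB), are selected by T cells in the light zone as centrocytes (CC), and induce the growth regulator Myc when they are selected, after which they recycle to the dark zone or leave as plasmablasts, plasma cells or memory cells.

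The sequence around the transcription start is shown for the genes whose levels are followed below, because the TOP motif begins at that point. RefSeq start windows (GRCm38.p6) were found for 61 of the 81 genes. Each line gives 10 bases before the annotated start and the first 20 bases of the transcript, 5′ to 3′ on the coding strand, with the longest pyrimidine run that opens with C near the start in capitals where there is one.
Rps6, chr4:86857348-86857377, minus strand: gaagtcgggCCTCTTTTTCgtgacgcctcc
Rps27, chr3:90213629-90213658, minus strand: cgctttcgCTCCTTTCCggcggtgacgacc
Rps27l, chr9:66946076-66946105, plus strand: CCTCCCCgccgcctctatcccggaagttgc
Rpl38, chr11:114668570-114668599, plus strand: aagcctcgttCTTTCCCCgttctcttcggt
Rpl22l1, chr3:28805498-28805527, plus strand: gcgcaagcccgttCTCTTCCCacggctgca
Rps2, chr17:24720053-24720082, plus strand: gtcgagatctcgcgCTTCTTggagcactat
Rps12, chr10:23787190-23787219, minus strand: tcatgcggccaccgccggCCTTTTCCCCTg
Rpl10, chrX:74270806-74270835, plus strand: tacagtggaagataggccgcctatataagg
Rpl5, chr5:107900518-107900547, plus strand: cgtcgcttgcgtgctggtggtgctacatac

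Rpl10 and Rpl5 have no such run in these windows, and in Rps27l the longest run lies ahead of the annotated start. A C followed by at least 4 pyrimidines and beginning within 10 bases of the start was found in 37 of the 61 genes (60.7%). Among all 27025 genes with a window it was found in 9297 (34.4%). A gene with several windows was counted once, if any of them held the motif. Over the whole 300 bases and both strands, CCGGAAG, the core of sites for ETS factors, occurred in 26 of the 61 (42.6%) against 9.93% of all genes, and AAGATGG in 10 (16.4%) against 7.28%. GGGCGG, a GC box, occurred in 38 (62.3%) against 38.2%. TATAAA was the only motif searched with a smaller share in the ribosomal protein genes, in 7 (11.5%) against 15.7%. These counts describe letters in the windows, and no binding was measured.

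The libraries held 1268 to 5381 barcodes and 5223325 to 35354257 UMIs, and 20847 cells were kept. Cell classes were rebuilt by clustering without the ribosomal protein genes and the other translation genes listed below, and were named from marker genes, since the label GC B cells does not hold for all of them: 33 T-cell markers summed to 17165 to 26150 CPM by library in T cell-like and 598 to 990 in naive or memory B-like cells. They comprised 5585 CB-like, 1360 CC-like, 1875 recycling-like, 1799 naive or memory B-like, 690 myeloid-like, 2872 S-phase GC B-like, 535 T cell-like and 1825 plasma-lineage cells, and 4306 cells stayed unnamed. The plasma-lineage cells divide into 599 plasmablast-like (PB-like) and 1226 PC-like cells, PC standing for plasma cell. The marker list for recycling-like cells includes Myc and nucleolar genes, but no ribosomal protein gene. The members of that list that gave the name were Hspd1, C1qbp, Mif and Srm, and Myc was instead among the top genes of the CC-like cluster. Smc3 +/- replicate 2 stood apart: it gave 1146 of the 1226 PC-like cells, 592 of the 690 myeloid-like cells and only 134 of the 5585 CB-like cells, and immunoglobulin genes took 52.9% of its UMIs. Because of that, shares below are of UMIs outside immunoglobulin genes. Both libraries numbered replicate 1 also stood apart, with low ribosomal protein shares in the GC, naive or memory B-like and T cell-like classes. The libraries shared 4 to 43 cell barcodes by pair.

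Ribosomal protein genes took the largest share of UMIs in naive or memory B-like, T cell-like and recycling-like cells and the smallest in plasma cell-like and some myeloid-like cells. In naive or memory B-like cells the share was 18.8% in the lowest library, 28.6% at the median and 30.5% in the highest (mean 26.0% ± 5.57, SD, n = 6), and in T cell-like cells the mean was 24.99% ± 5.49. Recycling-like cells had 24.0% ± 4.26, S-phase GC B-like cells 21.9% ± 4.95, CC-like cells 21.3% ± 5.38 and CB-like cells 20.01% ± 4.18. The ranges of these classes overlapped widely, since the same low libraries recur in each. Within a library the order was steadier. The share was above that of CB-like cells in 6 of 6 libraries for naive or memory B-like cells (by 5.99 ± 1.83 percentage points), recycling-like cells (3.98 ± 0.787) and S-phase GC B-like cells (1.85 ± 0.879), and in 5 of 6 for CC-like cells (1.34 ± 1.42, or 0.850 without Smc3 +/- replicate 2). In an exact two-sided paired permutation test each of the first 3 gave p = 0.0312, the smallest that 6 pairs allow, which was 0.0729 after adjustment over 7 contrasts. None of the 7 passed the threshold after adjustment.

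**Figure D1:**
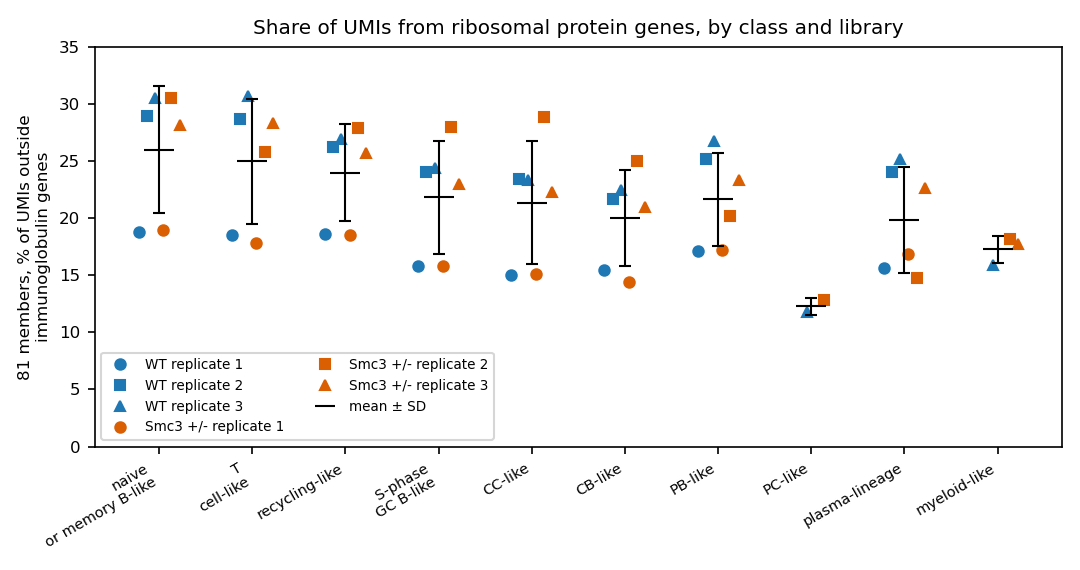
Share of UMIs outside immunoglobulin genes taken by the 81 ribosomal protein genes (vertical axis, percent) in each cell class, with a point for each library that had at least 20 cells of the class and bars for the mean ± SD. Naive or memory B-like cells had the highest mean of the B-cell classes (26.0%) and PC-like cells the lowest (12.3%, 2 libraries), and both replicate 1 libraries lie low in each B-cell class of the GC.

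Plasma-lineage cells did not have a fixed position. Their share was 14.7% in the lowest library, 19.7% at the median and 25.2% in the highest, and it exceeded that of CB-like cells in 5 of 6 libraries, with a mean difference of −0.153 ± 5.07 percentage points (exact p = 1). Smc3 +/- replicate 2 was the exception, and without it the mean difference was 1.88. PB-like cells alone had 21.6% ± 4.08, which was 1.64 points above CB-like cells, and PC-like cells 12.3% ± 0.755 in the 2 libraries with at least 20 such cells. In myeloid-like cells the share was 15.9%, 17.7% and 18.1% in the 3 libraries with enough cells, below CB-like cells in 3 of 3, with a mean difference of −5.56 ± 2.01 points (exact p = 0.25, the smallest possible). The 3 myeloid-like clusters are given with their UMIs pooled over libraries, and so mix cluster with library. The cluster led by Lyz2 (573 cells, 89.9% from Smc3 +/- replicate 2) had 20.3% (Wilson 95% interval 20.2 to 20.3), the cluster led by the complement genes C1qa and C1qb (61 cells, 34.4% from that library) 12.1% (11.9 to 12.3), and the cluster led by the neutrophil granule genes S100a8 and Ngp (56 cells, all from that library) 5.77% (5.68 to 5.86). These intervals cover counting error only.

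Single genes were tested with edgeR's quasi-likelihood test on UMIs summed per library and class, with the library as a block, over 9806 genes. Of the 81 genes, 80 passed the low-count filter, and the testis-enriched paralog Rpl39l, with 126 UMIs, did not. Levels are given as TMM-scaled CPM, that is, UMIs relative to the scaled total of a library and class, immunoglobulin UMIs included. The contrasts with CB-like cells share those cells and are not independent of each other.

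In naive or memory B-like cells 75 of the 80 genes were higher than in CB-like cells and 1 was lower. Of all genes tested, 28.7% were called higher and 23.5% lower (52.2% in all). The median log2 difference was 0.51 over the 80 genes and 0.07 over all genes. Rpl36, a large-subunit protein, had 2028 CPM in the lowest library, 3591 at the median and 4119 in the highest, against 1178, 1686 and 2476 in CB-like cells, a log2 difference of 0.92 ± 0.110 (SE; adjusted p = 1.74e-09). The pooled ranges overlapped, but Rpl36 was higher in 6 of 6 libraries. Rps27, a zinc-finger protein of the small subunit, had 6146, 9831 and 11221 CPM against 4116, 5225 and 5724 (log2 0.83 ± 0.0955, adjusted p = 7.06e-10). All naive or memory B-like values of Rps27 lay above all CB-like values. Rpl27a had 1670, 3732 and 4562 CPM against 1049, 2062 and 2913 (log2 0.77, adjusted p = 5.55e-09), with overlapping ranges. The lone gene that fell was Rps27l, the p53-inducible paralog of Rps27, at 241, 315 and 395 CPM against 399, 439 and 469 (log2 −0.50 ± 0.113, adjusted p = 2.47e-04). Its ranges did not overlap either, so the 2 paralogs differed from CB-like cells in opposite directions. Rpl7l1, a paralog of Rpl7 that works in subunit assembly, and Rpl28 were close to CB-like cells (log2 −0.02, adjusted p = 0.863, and 0.12, adjusted p = 0.219). Without both replicate 1 libraries 71 genes were higher and 1 lower, and without Smc3 +/- replicate 2 the counts were 78 and 1. With library totals alone they were 29 and 1, with a median log2 difference of 0.35.

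In recycling-like cells 69 of the 80 genes were higher than in CB-like cells and 1 was lower, against 21.8% higher and 28.6% lower among all genes (50.5% called). The median log2 difference was 0.36 over the 80 and −0.08 over all genes. All 70 called genes had the same direction in 6 of 6 libraries. Rpl5, which with Rpl11 and the 5S ribosomal RNA forms the particle that can bind MDM2, led with 1118, 1399 and 1612 CPM (lowest, median, highest) against 519, 761 and 856, a log2 difference of 0.92 ± 0.109 (adjusted p = 3.04e-09). The 2 sets of libraries did not overlap for Rpl5. Rps2, a small-subunit protein at the mRNA entry, had 2459, 4953 and 5650 CPM against 1359, 2523 and 3440 (log2 0.90 ± 0.121, adjusted p = 5.52e-08), and Rpl7a 831, 1318 and 1545 against 414, 722 and 906 (log2 0.83 ± 0.102, adjusted p = 7.27e-09). Both had overlapping ranges with the same direction in 6 of 6 libraries. Rps27l rose as well, to 619, 746 and 954 CPM (log2 0.78, adjusted p = 8.70e-08), without overlap. Rps27 fell, with 3425, 4046 and 4484 CPM against 4116, 5225 and 5724 (log2 −0.32 ± 0.0949, adjusted p = 0.00424), and was lower in 6 of 6 libraries. Rps19 was at log2 −0.04 (adjusted p = 0.736). Without both replicate 1 libraries 55 genes were higher and 0 lower, so the fall of Rps27 was then not called, and without Smc3 +/- replicate 2 the counts were 77 and 1. With library totals alone 19 were higher and 0 lower, although the median log2 difference was then 0.32 and 0 of the 80 genes changed sign. Depth per cell moved with this contrast: the median UMI count per cell was 10314.5 to 18030 by library in recycling-like and 3826 to 6897 in CB-like cells. Its part in the result was not tested.

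CC-like cells, which hold the markers of selection in the light zone, differed little from CB-like cells in these genes. Only 3 of the 80 were higher and 0 lower by edgeR, whereas 15.4% of all genes were higher and 20.2% lower (35.6% called). An unadjusted p under 0.05 was reached by 4 genes, and DESeq2 called 7 higher. Rpl7l1 had 105, 143 and 159 CPM against 73, 94 and 106 (log2 0.59 ± 0.0898, adjusted p = 7.14e-07), Rpl38 a log2 difference of 0.29 (adjusted p = 0.0100) and Rpl5 also 0.29 (adjusted p = 0.0325), all in 6 of 6 libraries. Rpl39, Rps4x and Rpsa were the lowest, each at log2 −0.10 with adjusted p from 0.390 to 0.401. In S-phase GC B-like cells 0 of the 80 genes were called in either direction by edgeR, whereas 9.48% of all genes were higher and 10.3% lower (19.7% called). Of the 80, 1 reached an unadjusted p under 0.05, and DESeq2 called 4 higher. All 80 log2 differences were nevertheless above 0, between 0.01 and 0.21 with a median of 0.10, while the median over all genes was 0.00. The highest were Rpl22l1 (0.21, adjusted p = 0.269), Rps2 (0.20, adjusted p = 0.258) and Rpl5 (0.20, adjusted p = 0.222), and the lowest Rps12, Rpl7l1 and Rpsa, each at 0.01 (adjusted p = 0.994, 0.979 and 0.961). Smc3 +/- replicate 2 mattered for both contrasts: without it 29 genes were called higher in CC-like cells and 38 in S-phase GC B-like cells.

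**Figure D2:**
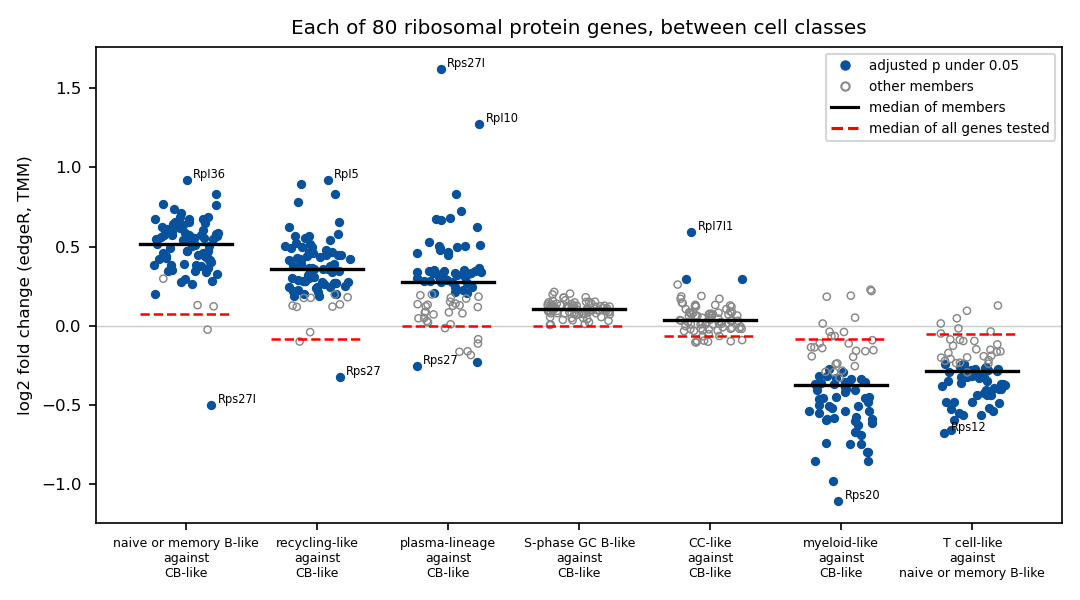
Log2 fold change of each of the 80 tested ribosomal protein genes (vertical axis) in each class contrast (horizontal axis), with genes past an adjusted p of 0.05 in edgeR filled and the others open, black bars at their median and dashed red bars at the median of all genes. The genes lie above 0 as a group in naive or memory B-like and recycling-like cells (medians 0.51 and 0.36), near 0 in CC-like cells (0.04) and below 0 in myeloid-like cells (−0.37), and Rps27l and Rpl10 stand above the rest in plasma-lineage cells (1.62 and 1.27).

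In plasma-lineage cells the log2 differences from CB-like cells ran from −0.25 to 1.62 over the 80 ribosomal protein genes, with quartiles of 0.13 and 0.35. Of the 80, 49 were higher and 2 lower than in CB-like cells. Of all genes 30.4% were higher and 30.3% lower (60.7% called), so the share of these genes called (51 of 80) was near the background, although nearly all lay on the higher side. The median log2 difference was 0.28 over the 80 genes and −0.00 over all genes, and 32 of the 51 called genes had the same direction in all 6 libraries. Rps27l had 1179 CPM in the lowest library, 1339 at the median and 1585 in the highest, against 399, 439 and 469 in CB-like cells, or 3.08-fold more (log2 1.62 ± 0.111, adjusted p = 6.45e-17). Rpl10, which sits at the site where subunits join and is loaded last in assembly, had 2666, 4744 and 5056 CPM against 1018, 1916 and 2579, or 2.42-fold more (log2 1.27 ± 0.0915, adjusted p = 3.53e-16). For neither gene did the plasma-lineage and CB-like libraries overlap. Rpl38, a small protein of the large subunit, had 1693, 2298 and 2585 CPM against 882, 1273 and 1595 (log2 0.83 ± 0.0917, adjusted p = 1.44e-10), again without overlap. Rps27 (2970, 4580 and 4949 CPM, log2 −0.25, adjusted p = 0.020) and Rps19 (log2 −0.23, adjusted p = 0.0217), a small-subunit protein mutated in Diamond-Blackfan anemia, were the 2 that fell, each in 6 of 6 libraries. Neither was called lower with immunoglobulin genes left out of the fit.

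The plasma-lineage counts depended on the scaling. Immunoglobulin genes took 19.9% to 65.1% of the plasma-lineage UMIs by library. With immunoglobulin genes left out of the fit, 0 ribosomal protein genes were called lower. Their part in the change with library totals was not tested. With library totals alone the median over all genes was −0.94, and 2 ribosomal protein genes were called higher and 58 lower. Of the 49 genes called higher on the TMM scale, 27 were called lower with library totals. Rps27l (log2 0.86) and Rpl10 (log2 0.54) stayed above CB-like cells under that scaling too, Rpl38 was at 0.07 (adjusted p = 0.712), and Rps27 lay further below. In PB-like cells alone 63 genes were higher and 1 lower, with log2 differences of 1.65 for Rps27l, 1.37 for Rpl10 and 0.89 for Rpl38, and −0.21 for Rps27. Without Smc3 +/- replicate 2 the counts were 74 higher and 1 lower, and without both replicate 1 libraries 43 and 0. Copies of these genes elsewhere in the genome moved with them: Rpl10-ps3, an annotated pseudogene of Rpl10, had a mean of 266 CPM in plasma-lineage and 121 in CB-like cells, and Rps27rt, a copy of Rps27, had 983 CPM in naive or memory B-like and 480 in CB-like cells. Reads shared between a gene and such a copy cannot be told apart, so the levels of Rpl10 and Rps27 are uncertain by an amount not known from these data.

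Myeloid-like and T cell-like cells are outside the B lineage. In myeloid-like cells, compared with CB-like cells in the 3 libraries with at least 20 of them (WT replicate 3, Smc3 +/- replicates 2 and 3), 0 of the 80 genes were higher and 52 lower by edgeR. Among all genes 22.7% were higher and 22.8% lower (45.4% called), and 57 of the 80 had an unadjusted p under 0.05. DESeq2 called 5 higher and 32 lower. The median log2 difference was −0.37 over the 80 genes and −0.08 over all genes. Rps20, a small-subunit protein near the mRNA channel, had 848, 1319 and 1094 CPM in the 3 libraries against 2557, 2501 and 2082 in their CB-like cells (log2 −1.11 ± 0.109, adjusted p = 1.55e-11). Rpl22l1 had 640, 1073 and 620 CPM against 1451, 1813 and 1481 (log2 −0.98, adjusted p = 1.93e-05), and Rps2 1300, 2041 and 1324 against 2807, 3440 and 2511 (log2 −0.86, adjusted p = 2.83e-05). For these 3 genes the groups did not overlap. The highest genes were Rps9, Rps29 and Rpl38, at log2 0.23, 0.22 and 0.19 (adjusted p = 0.106, 0.106 and 0.202). Without Smc3 +/- replicate 2, which gave most myeloid-like cells, 73 genes were lower. The 32 CB markers summed to 810 to 3273 CPM in myeloid-like and 11572 to 14098 in CB-like cells.

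T cell-like cells were compared with naive or memory B-like cells. Of the 80 genes 0 were higher and 51 lower by edgeR, against 10.1% higher and 13% lower among all genes (23.1% called). An unadjusted p under 0.05 was reached by 60, DESeq2 called 1 higher and 29 lower, and all 51 were lower in 6 of 6 libraries. Rps12, a small-subunit protein, had 429, 1045 and 1373 CPM (lowest, median, highest) against 645, 1793 and 2273 (log2 −0.68 ± 0.114, adjusted p = 7.62e-06). Rps26, which lies at the mRNA exit, had 835, 1794 and 1914 against 1342, 2729 and 3261 (log2 −0.66 ± 0.0937, adjusted p = 2.66e-07), and Rpl28 had 596, 1186 and 1366 against 831, 1841 and 2204 (log2 −0.59 ± 0.0878, adjusted p = 5.80e-07). The ranges overlapped for all 3, and the difference showed within libraries. Rpl12, Rps15a and Rps23 were the highest, at log2 0.13, 0.09 and 0.05 (adjusted p from 0.471 to 0.756). With library totals alone, under which the median over all genes was 0.21, 0 genes were lower, and the share of UMIs gave a difference of −1.0 ± 1.86 percentage points with T cell-like cells higher in 2 of 6 libraries (exact p = 0.188; −0.267 without Smc3 +/- replicate 2), so the number of calls and the size of the difference rest on the scaling. The median over the 80 genes was −0.28 on the TMM scale and −0.04 with library totals. Without both replicate 1 libraries 24 genes were lower. Immunoglobulin genes, which T cells do not express as B cells do, took 4.69% of the T cell-like UMIs in Smc3 +/- replicate 2 and 0.19% to 1.32% elsewhere.

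The 7 classes other than myeloid-like were ranked by mean CPM. Myeloid-like cells, where 52 of the 80 genes were called lower than in CB-like cells, were left out of the ranking and its ratios. The highest of the 7 was naive or memory B-like for 56 of the 80 genes, recycling-like for 15, plasma-lineage for 5 (Rps27l, Rpl10, Rplp0, Rpl41 and Rpl38), T cell-like for 3 (Rpl12, Rps15a and Rps23) and CC-like for Rpl7l1. The lowest class was CB-like for 48 genes, T cell-like for 15, CC-like for 10, plasma-lineage for 6 and recycling-like for 1. This order was set on the TMM scale. With library totals alone the highest class was naive or memory B-like for 28 genes, recycling-like for 26 and T cell-like for 22, and the lowest was plasma-lineage for 76 and CB-like for 3, so the places of the plasma-lineage, T cell-like and CB-like cells rest on the scaling. On the TMM scale, the ratio of the highest to the lowest class had a median of 1.52 over the genes and was smallest for Rps16 (1.25). Rps27l (5.40), Rpl10 (2.37) and Rps27 (2.28) had the largest ratios.

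Paralog pairs allow a comparison inside each sample that no scaling touches. The ratio of Rps27l to Rps27 UMIs was lowest in T cell-like (mean 0.0329) and naive or memory B-like cells (0.0388), was 0.0892 in CB-like cells (0.0759 to 0.103 over 6 libraries), 0.0937 in S-phase GC B-like and 0.0939 in CC-like cells, and rose to 0.194 in recycling-like (0.166 to 0.246) and 0.330 in plasma-lineage cells (0.291 to 0.427). Recycling-like and plasma-lineage libraries did not overlap with CB-like libraries. Against CB-like cells the log2 ratio differed by 1.88 ± 0.161 in plasma-lineage cells (higher in 6 of 6 libraries), 1.11 ± 0.216 in recycling-like cells (6 of 6) and −1.32 ± 0.501 in naive or memory B-like cells (0 of 6). Each gave an exact permutation p of 0.0312, the smallest that 6 pairs allow, or 0.109 after adjustment over 14 tests, and so did not pass. PB-like cells alone had 0.326 and myeloid-like cells 0.0834. Reads of Rps27rt, where they were counted apart from Rps27, are not in the ratio.

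The ratio of Rpl22l1 to Rpl22, a pair whose proteins bind RNA and have antagonistic roles in lymphocyte development, moved less. It was 1.598 in CB-like and 1.22 in plasma-lineage cells, lower in 6 of 6 libraries by 0.44 ± 0.427 on the log2 scale (exact permutation p = 0.0312, adjusted 0.109). Without Smc3 +/- replicate 2 the difference was −0.27. In T cell-like cells the mean was 1.78 and in myeloid-like cells 1.01. This ratio followed the library more than the class: the 2 replicate 1 libraries were the highest in each of the 7 classes, at 1.62 to 2.74. The heart and muscle paralog Rpl3l had 18 of its 21 UMIs in myeloid-like cells, too few for a ratio.

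**Figure D3:**
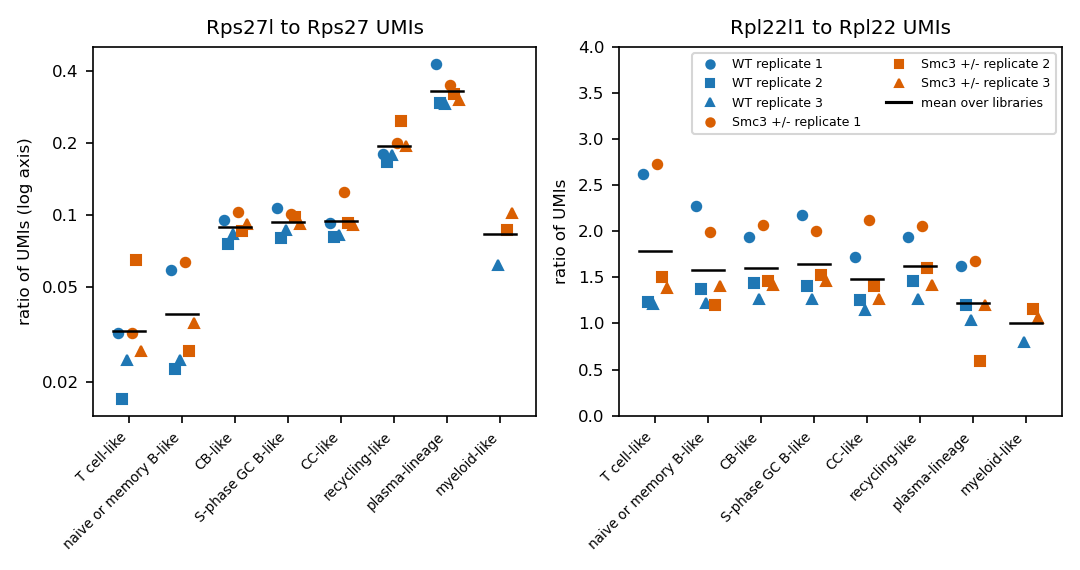
Ratio of summed UMIs of Rps27l to Rps27 (left, log axis) and of Rpl22l1 to Rpl22 (right, linear axis), with 0.5 added to each count, in each cell class, with a point for each library and a bar at the mean. The Rps27l to Rps27 ratio goes from 0.0329 in T cell-like and 0.0388 in naive or memory B-like cells to 0.330 in plasma-lineage cells, whereas the Rpl22l1 to Rpl22 ratio is set apart mainly by the replicate 1 libraries.

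UMIs of small-subunit genes amounted to 0.812 of those of large-subunit genes in CB-like cells (mean of 6 libraries), to 0.769 in recycling-like and 0.746 in plasma-lineage cells, and to 0.836 in T cell-like and 0.849 in myeloid-like cells. The log2 difference from CB-like cells was −0.12 ± 0.00862 in plasma-lineage and −0.08 ± 0.0134 in recycling-like cells, below 0 in 6 of 6 libraries for both (exact permutation p = 0.0312, the smallest possible, adjusted 0.109), so neither passed after adjustment. It was above 0 in 3 of 3 libraries in myeloid-like cells, and of mixed sign over libraries in CC-like (4 of 6 above 0), S-phase GC B-like (1 of 6) and naive or memory B-like cells (1 of 6). Between T cell-like and naive or memory B-like cells it was 0.05, above 0 in 5 of 6 libraries (exact permutation p = 0.0625, adjusted 0.146). By gene, 44 of 48 large-subunit genes were called higher in recycling-like cells, against 25 higher and 1 lower of 32 small-subunit genes. The counts in plasma-lineage cells were 31 of 48 against 18 higher and 2 lower of 32, in naive or memory B-like cells 45 of 48 against 30 higher and 1 lower of 32, and in myeloid-like cells 33 and 19 lower.

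The acidic stalk of the large subunit, which recruits elongation factors, is made of Rplp0, Rplp1 and Rplp2. All 3 rose in recycling-like (log2 0.50, 0.58 and 0.42), naive or memory B-like (0.39, 0.74 and 0.42) and plasma-lineage cells (0.53, 0.50 and 0.34), and in myeloid-like cells Rplp0 fell (−0.59) while Rplp1 and Rplp2 were at −0.24 and −0.29 without passing the test. Rpl11, the partner of Rpl5, rose in recycling-like (0.50), naive or memory B-like (0.69) and plasma-lineage cells (0.51). In plasma-lineage cells these rises rest on the TMM scale: with library totals alone Rplp0, Rplp1 and Rplp2 were at −0.20, −0.24 and −0.38 and Rpl11 at −0.22, none past the threshold. Rps6, the substrate of S6 kinase, rose in naive or memory B-like (0.39) and recycling-like cells (0.22, adjusted p = 0.0346), with 0.07 in plasma-lineage cells (adjusted p = 0.491). Rps14, lost in the 5q− syndrome, rose in naive or memory B-like (0.76), recycling-like (0.27) and plasma-lineage cells (0.50, or −0.30 with library totals alone). Rpsa, which doubles as a laminin receptor, rose in naive or memory B-like cells (0.20, adjusted p = 0.0446), fell in myeloid-like cells (−0.85) and passed in neither recycling-like (0.18, adjusted p = 0.0797) nor plasma-lineage cells (−0.11, adjusted p = 0.259).

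Other genes of the translation machinery followed the ribosomal proteins only in part. The counts of each list are to be read against the shares of all genes called higher and lower, which were 15.4% and 20.2% in CC-like, 21.8% and 28.6% in recycling-like, 9.48% and 10.3% in S-phase GC B-like, 28.7% and 23.5% in naive or memory B-like, 30.4% and 30.3% in plasma-lineage, 22.7% and 22.8% in myeloid-like and 10.1% and 13% in T cell-like cells. Of 62 ribosome biogenesis genes (nucleolar assembly factors and RNA polymerase I subunits), 59 were higher in CC-like cells (median log2 1.18), 62 in recycling-like (1.22), 28 in S-phase GC B-like (0.35), 39 in plasma-lineage (1 lower, 0.58) and 14 in naive or memory B-like cells (5 lower, 0.06). CC-like cells thus had 59 of 62 biogenesis genes but 3 of 80 ribosomal protein genes higher, and naive or memory B-like cells 14 of 62 and 75 of 80. The count of 3 was 29 without Smc3 +/- replicate 2 and 10 without immunoglobulin genes, and the 75 was 29 with library totals. Ncl, the nucleolar protein nucleolin, was at log2 0.88 in CC-like, 1.27 in recycling-like and −0.39 in naive or memory B-like cells, all past the threshold. Some of these biogenesis genes, Ncl and Nhp2 among them, are on the marker list of recycling-like cells. Neither was among the top 10 genes that gave the name, but the count there is not taken as independent of the class. Myc, which drives transcription of such genes, was at log2 3.38 in CC-like cells (adjusted p = 2.02e-17) and 2.08 in recycling-like cells, and also rose in naive or memory B-like cells (2.03).

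Of 7 elongation factors tested, 6 were higher in recycling-like (median log2 0.97), 5 in naive or memory B-like (1 lower, 0.26), 5 in plasma-lineage (0.48) and 4 in CC-like cells (0.34), 0 were called in S-phase GC B-like cells (0.07), and 5 were lower in myeloid-like (−0.65) and 3 in T cell-like cells (−0.25). Eef1g was at 1.02 in recycling-like and 0.92 in plasma-lineage cells, while Eef1a1, the factor that delivers aminoacyl-tRNA, was at 0.16 (adjusted p = 0.106) and −0.02 (adjusted p = 0.873). Of 40 initiation factors, 30 were higher and 3 lower in recycling-like cells (0.49), 21 and 8 in plasma-lineage (0.34), 17 and 5 in CC-like (0.19), 5 and 0 in S-phase GC B-like (0.10), 3 and 17 in naive or memory B-like (−0.18), 0 and 16 in myeloid-like (−0.31) and 1 and 9 in T cell-like cells (−0.15). Of 11 other TOP mRNAs, 7 were higher and 2 lower in recycling-like cells (0.48), 6 and 0 in naive or memory B-like (0.27), 5 and 1 in plasma-lineage (0.34), 2 and 0 in CC-like (0.17), 0 in S-phase GC B-like (0.07), 2 and 7 in myeloid-like (−0.39) and 1 and 6 in T cell-like cells (−0.30). Fau, which encodes a small-subunit protein fused to a ubiquitin-like domain and so falls outside the naming rule, was higher in naive or memory B-like cells (0.40) and lower in recycling-like (−0.23) and plasma-lineage cells (−0.40). Naca, a chaperone at the ribosome exit, was at 0.48 in recycling-like and 0.35 in naive or memory B-like cells, both past the threshold. The other TOP mRNAs and the elongation factors, rather than the initiation factors, had a positive median in naive or memory B-like cells, as the ribosomal proteins did.

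**Figure D4:**
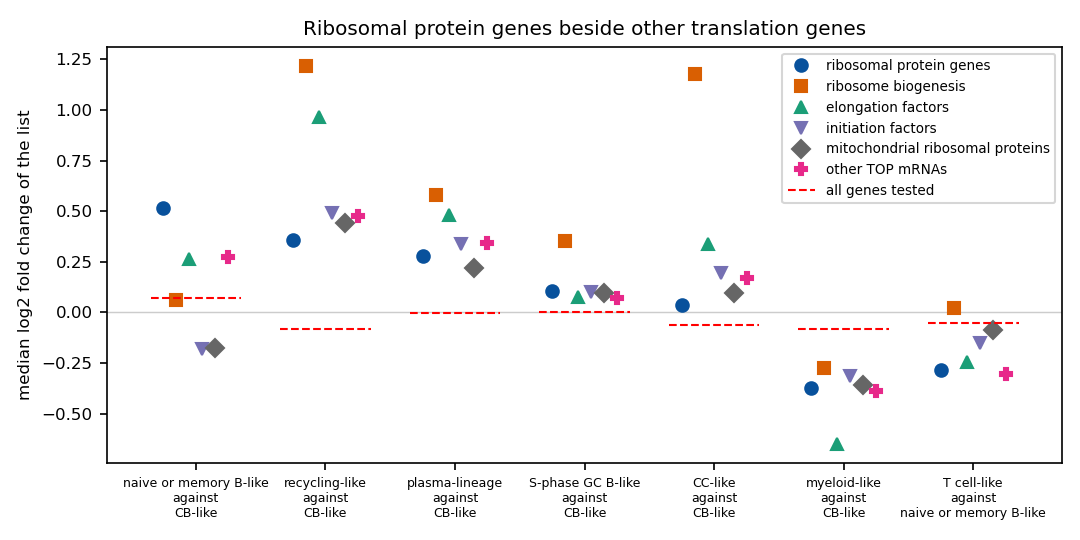
Median log2 fold change (vertical axis) of the ribosomal protein genes and of each other gene list in each class contrast (horizontal axis), with a dashed line at the median over all tested genes. Ribosomal protein genes had their highest median in naive or memory B-like cells (0.51), where ribosome biogenesis genes were at 0.06, and biogenesis genes had theirs in recycling-like (1.22) and CC-like cells (1.18).

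The mitochondrial ribosome is built from its own proteins. Of 77 genes named for them, 63 were higher and 0 lower in recycling-like cells (median log2 0.44), 37 and 9 in plasma-lineage (0.22), 22 and 11 in CC-like (0.10), 15 and 3 in S-phase GC B-like (0.10), 5 and 27 in naive or memory B-like (−0.18), 3 and 31 in myeloid-like (−0.36) and 3 and 9 in T cell-like cells (−0.09). Mrpl18 was at 0.43 in recycling-like and −0.86 in naive or memory B-like cells, both past the threshold. Of 27 regulators of TOP mRNAs and growth, the counts higher and lower were 5 and 10 in recycling-like, 6 and 7 in CC-like, 7 and 7 in naive or memory B-like, 12 and 7 in plasma-lineage and 7 and 6 in myeloid-like cells, and 2 and 2 in both S-phase GC B-like and T cell-like cells. The 7 and 7 of 27 in naive or memory B-like cells are close to the shares over all genes there. Larp1 rose in recycling-like (0.92, adjusted p = 1.01e-07) and plasma-lineage cells (0.72, adjusted p = 3.13e-04). Of the p53 targets, Cdkn1a rose in plasma-lineage (2.10, adjusted p = 0.00190) and myeloid-like cells (4.08, adjusted p = 2.96e-05), and Mdm2 fell in CC-like (−0.69) and rose in plasma-lineage cells (0.48).

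The ribosomal protein genes also varied between libraries. For the replicate 1 libraries the median differences below were larger than those of the class contrasts, which ran from −0.37 to 0.51. In each genotype the replicate 1 library was set against replicate 3 of the same genotype and class. In CB-like cells the median log2 ratio over the 80 genes was −0.86 for WT (77 of 80 below 0) and −0.77 for Smc3 +/- (78 of 80), while over all genes it stayed between −0.06 and 0.03 in every such comparison. In the other GC and naive classes it was −0.82 to −1.12 for WT and −0.68 to −0.82 for Smc3 +/-. Elongation factors were low in the same libraries (CB-like medians −0.74 and −0.58), as were the other TOP mRNAs (−0.52 and −0.48), but biogenesis genes (0.02 and −0.02) and mitochondrial ribosome genes (0.03 and −0.02) were not. Rps12 (mean −1.38), Rps13 (−1.27) and Rps20 (−1.24) were the lowest, and Rpl35 (0.70), Rpl7l1 (0.16), Rpl13a (0.05) and Rps27l (−0.06) the highest. These means cover both genotypes: Rpl13a was at 0.26 to 0.44 over the 5 classes in WT and −0.34 to −0.18 in Smc3 +/-, and Rpl35 at 0.94 to 1.202 and 0.22 to 0.35. Other libraries were nearer to each other, with a median of −0.08 for WT replicate 2 against 3 and −0.15 for Smc3 +/- replicate 3 against WT replicate 3 in CB-like cells, although Smc3 +/- replicate 2 was 0.32 above replicate 3. Mitochondrial transcripts took 4.44% and 3.91% of CB-like UMIs in the replicate 1 libraries and 2.85% to 3.42% in the other libraries. Their part in the pattern was not tested.

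**Figure D5:**
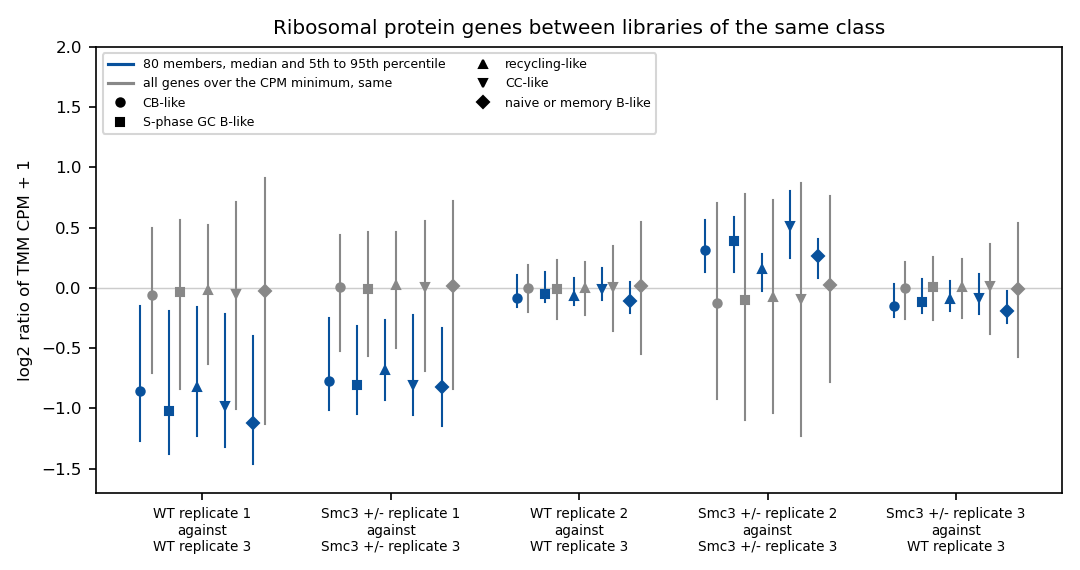
Log2 ratio of TMM-scaled CPM, with 1 added, between the pairs of libraries named on the horizontal axis, for 5 classes (symbols at the median, lines over most genes as in the legend) of the 80 ribosomal protein genes in blue and of all genes above 20 CPM in grey. Replicate 1 of both genotypes lies between −0.68 and −1.12 for the ribosomal protein genes in the GC and naive classes, with all genes near 0.

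The Smc3 +/- libraries were compared with WT within each class, which asks whether the loss of 1 Smc3 copy goes with a change in these genes. Where the 3′ reads of Smc3 fall relative to the deleted exon was not examined, and whether the deletion lowers its level in these libraries is not known. The level of Smc3 was therefore not used to check the labels. In the study's RNA-seq of lymphomas, Smc3 expression was reduced in tumors lacking 1 Smc3 copy. In CB-like cells Smc3 had 142, 172 and 154 CPM in WT and 144, 136 and 186 in Smc3 +/-, with overlapping values (log2 0.00, edgeR adjusted p = 1). The log2 difference of Smc3 was −0.22 over all kept cells, −0.26 in plasma-lineage, −0.19 in naive or memory B-like, −0.18 in CC-like, −0.08 in both S-phase GC B-like and recycling-like and 0.00 in T cell-like cells, none past the threshold. No ribosomal protein gene passed edgeR's test in any of the 8 comparisons (all kept cells and 7 classes), and neither did any other gene (0% called of 2374 to 11841 tested), with 75 to 222 genes at an unadjusted p under 0.05. DESeq2 called 3 genes in CB-like and 1 in S-phase GC B-like cells, 0 of them ribosomal. An unadjusted p under 0.05 was reached by 1 ribosomal protein gene in all kept cells and 1 in plasma-lineage cells. Rpl39l had 0, 0.251 and 0.692 CPM in WT and 1.49, 1.77 and 0.919 in Smc3 +/- over all kept cells (edgeR adjusted p = 0.925), without overlap, from 0, 9 and 26 UMIs in WT and 26, 24 and 32 in Smc3 +/-. Rpl13a, which leaves the ribosome to silence inflammatory mRNAs, was at log2 −0.67 in plasma-lineage cells (edgeR adjusted p = 0.909) and was the lowest ribosomal protein gene in each of the 8 comparisons. In CB-like cells Rpl13a had 1035, 736 and 772 CPM in WT and 588, 839 and 709 in Smc3 +/-, which overlap. The groups also overlapped in S-phase GC B-like, CC-like, naive or memory B-like and T cell-like cells. They did not overlap for Rpl13a over all kept cells (975, 710 and 739 CPM in WT against 575, 561 and 683), in recycling-like cells (1236, 932 and 961 against 756, 854 and 891) or in plasma-lineage cells (913, 552 and 603 against 464, 353 and 484). Beside Rpl39l and Rpl13a, the groups did not overlap for Rps27l in CC-like cells (416, 525 and 493 CPM in WT against 541, 664 and 536) and Rpl7l1 in T cell-like cells (84, 94 and 96 against 133, 104 and 121), both higher in Smc3 +/-. The ribosomal protein genes without overlap numbered 2 in all kept cells, 1 each in recycling-like, CC-like, plasma-lineage and T cell-like cells and 0 in the other 3 comparisons. Of all genes tested, the groups did not overlap for 8.08% in all kept cells, 8.27% in recycling-like, 8.44% in CC-like, 9.14% in plasma-lineage, 8.09% in T cell-like, 9.82% in CB-like, 9.03% in S-phase GC B-like and 7.28% in naive or memory B-like cells.

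The medians of log2 Smc3 +/- to WT differences over the ribosomal protein genes were −0.05 in all kept cells, 0.07 in CB-like, 0.09 in S-phase GC B-like, 0.02 in recycling-like, 0.17 in CC-like, 0.00 in naive or memory B-like, −0.14 in plasma-lineage and −0.15 in T cell-like cells. Single genes varied more between libraries than these medians. Rps12, the highest in CB-like cells at log2 0.22 ± 0.490, had 567, 1196 and 1328 CPM in WT and 468, 1996 and 1151 in Smc3 +/-, so each group held a low replicate 1 library. The share of UMIs in ribosomal protein genes was 19.9% ± 3.84 in WT and 20.2% ± 5.37 in Smc3 +/- CB-like cells (SD, n = 3 each), and over the 8 comparisons it differed by −3.59 to 1.47 percentage points with an adjusted exact permutation p of 1 in each, in a design whose smallest unadjusted p is 0.1. The lowest of these, −3.59 in plasma-lineage cells, was −1.93 without Smc3 +/- replicate 2, in which 1146 of 1501 plasma-lineage cells were PC-like, whereas PB-like cells were the majority in the 3 WT libraries (22 of 34, 51 of 67 and 55 of 78). It was −6.58 without WT replicate 1 and −1.82 without WT replicate 3. No difference between the genotypes in the ribosomal protein genes was detectable at this number of libraries.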

How the data were processed

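Single cell libraries (3 WT, 3 Smc3 +/-) were used as deposited: the authors made matrices of UMI counts per gene and cell with Cell Ranger 3.0.2 on mm10, and their processing notes also name R 4.0.2 and Seurat 4.0.0. The study's methods state more WT mice, whose libraries were not analysed here. All values are computed from these raw counts. Cells were kept from 500 detected genes upward if mitochondrial UMIs made up no more than 10%, and the highest Scrublet scores, at 0.8% per 1000 cells of a library, were removed as doublets. Depth was 5223325 to 35354257 UMIs per library and intervals cover counting error only. Cells were integrated over libraries (Seurat 5.3.0, RPCA) and clustered without ribosomal protein, mitochondrial, immunoglobulin and listed translation genes, and clusters were named from at least 3 markers among their top 10 genes, so a class here may differ from a class in the study.

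UMIs were summed per library and class (at least 20 cells) and tested with edgeR 4.0.16 (quasi-likelihood, TMM, low-count filter, Benjamini-Hochberg adjustment at 0.05), with class and library as terms for classes and with genotype alone for genotypes. Shares and log2 ratios (0.5 added to each paralog count) were tested by exact two-sided permutation over libraries. The code was tested on simulated counts. The alternatives tried were library totals, size factors of DESeq2 1.42.0 and its test, other filters, doublets kept, a clustering resolution of 1, each library left out, and, added after seeing the data, PB-like cells alone and omission of both replicate 1 libraries. The genes and lists were chosen with earlier results of these data known. Named genes are the 3 highest and 3 lowest in each class contrast, paralogs and their counterparts, the stalk proteins, Rpsa, Rpl5, Rpl11, Rps6, Rps19, Rpl10 and Rps14, the genotype extremes, and up to 4 abundant genes per other list. Rps13, Rpl35 and Rpl41 were named after their values were seen. A gene that the rule names in 2 contrasts is not reported here.

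WT and Smc3 +/- libraries share replicate numbers, and nothing in the labels says that a number marks a litter or day. Over all genes, the distances of libraries from the mean of their group were correlated between equal numbers. The values were 0.22, 0.14 and 0.16 in CB-like, 0.23, 0.12 and 0.13 in S-phase GC B-like and 0.33, 0.25 and 0.11 in naive or memory B-like cells. They were 0.21, 0.08 and 0.13 in recycling-like, 0.18, 0.09 and 0.15 in CC-like and 0.14, 0.08 and 0.18 in plasma-lineage cells. In each of these classes every Smc3 +/- library correlated best with the WT library of its number. WT replicate 3 was nonetheless nearer Smc3 +/- replicate 2 (0.13) in naive or memory B-like cells. Equal numbers of replicate 2 were at −0.06 in T cell-like and −0.16 in all kept cells. Counting in Cell Ranger uses the strand of the read, and how reads shared by gene copies were handled is not given in the sources used here. Promoter windows are from RefSeq (GRCm38.p6).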

Additional observations from a re-analysis of the deposited data

Results flagged for a closer look

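Of 28 ratios per class tested for a library far from its group (Dixon's test over 6 libraries), 5 were flagged, and chance flags about 1 in 20. The small to large subunit ratio was lowest in WT replicate 1, far below the other libraries, both in CB-like cells (0.785, the others 0.812 to 0.826) and in plasma-lineage cells (0.720, the others 0.747 to 0.757). In T cell-like cells it was lowest in Smc3 +/- replicate 2 (0.809), the library in which immunoglobulin genes took 4.69% of T cell-like UMIs. The Rps27l to Rps27 ratio stood far above the other libraries in CC-like cells of Smc3 +/- replicate 1 (0.124) and in T cell-like cells of Smc3 +/- replicate 2 (0.0646). The part of replicate, depth and free RNA in these values was not tested.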

How the results depend on the processing

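With library totals alone, genes higher than in CB-like cells numbered 1 in CC-like, 19 in recycling-like (0 lower), 29 in naive or memory B-like and 2 in plasma-lineage cells (58 lower), and 22 were lower in myeloid-like and 0 in T cell-like cells. With DESeq2's size factors, 6 were higher in CC-like cells, 5 higher and 31 lower in myeloid-like and 1 higher and 24 lower in T cell-like cells, and with DESeq2 itself 7 were higher in CC-like and 4 in S-phase GC B-like cells, 5 higher and 32 lower in myeloid-like and 1 higher and 29 lower in T cell-like cells. Leaving out immunoglobulin genes gave 10 higher in CC-like and 0 lower in plasma-lineage cells. A resolution of 1 gave 1 higher in CC-like and 1 lower in plasma-lineage cells, and PB-like cells alone 1 lower. With doublets kept, 2 were lower in recycling-like cells, 6 higher in S-phase GC B-like and 4 higher in myeloid-like cells. Leaving out 1 library at a time, or both replicate 1 libraries, gave 2 to 29 higher in CC-like, 0 to 38 in S-phase GC B-like and 43 to 74 in plasma-lineage cells, in each case with the most without Smc3 +/- replicate 2, 0 to 1 lower in recycling-like (0 without WT replicate 2 or both replicate 1 libraries) and 0 to 2 lower in plasma-lineage cells, 0 to 1 higher and 32 to 73 lower in myeloid-like (32 without WT replicate 3), and 0 to 1 higher and 24 to 54 lower in T cell-like cells (33 without Smc3 +/- replicate 3, 24 without both replicate 1 libraries). The causes were not tested. The replicate block called 0 ribosomal protein genes between genotypes in each comparison, as the fit without it did, and changed no other call.

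Differences in share reversed in plasma-lineage cells for PB-like cells alone (1.64 percentage points) and over left-out libraries (−0.891 to 1.88), and in T cell-like cells for the median over cells (0.0245). Log2 ratio differences near 0 reversed as follows. The subunit ratio did so in CC-like cells (−0.000422 to 0.00955 over left-out libraries) and, at resolution 1, in naive or memory B-like cells (0.0113). The Rpl22l1 to Rpl22 ratio did so in recycling-like cells at resolution 1 (−0.130) and with doublets kept (−0.0385), in S-phase GC B-like cells under a looser cell filter (−0.0185) and in naive or memory B-like cells (−0.0941 to 0.00876 over left-out libraries). The Rps27l to Rps27 ratio did so in CC-like cells at resolution 1 (−0.163), in T cell-like cells with doublets kept (0.136) and in myeloid-like cells (−0.211 to 0.0831 over left-out libraries). The Smc3 +/- minus WT share crossed 0 over left-out libraries in CB-like (−2.15 to 3.16), S-phase GC B-like (−2.01 to 4.04), recycling-like (−2.57 to 2.85, and −0.105 for the share of all UMIs), CC-like (−1.91 to 4.96), naive or memory B-like (−3.84 to 3.26) and T cell-like cells (−5.71 to 1.08).

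Of the genes named by the rule, those whose log2 fold change crossed 0 over left-out libraries were Rps4x (−0.107 to 0.0167) and Rpsa (−0.119 to 0.0495) in CC-like cells, Rps19 in recycling-like cells (−0.0427 to 0.0570), Rps12 (−0.0261 to 0.0799), Rpl7l1 (−0.00721 to 0.0721) and Rpsa (−0.0167 to 0.0843) in S-phase GC B-like cells, Rps9 in myeloid-like cells (−0.0318 to 0.378, against 0.23 with all libraries), and Rps12 (−0.351 to 0.595, against 0.22) and Rpl13a (−0.382 to 0.0270, against −0.25) between genotypes in CB-like cells. Among all 80 genes, library totals turned the sign of 68 in plasma-lineage cells, and 27 of the 49 called higher there were then called lower. Rps19 in recycling-like cells was at 0.0318 with no low-count filter and 0.0134 without immunoglobulin genes, Rps12 in S-phase GC B-like cells at −0.00156 at resolution 1, and Rpl7l1 in naive or memory B-like cells at 0.00956 with DESeq2's size factors and 0.00474 with DESeq2. Rpl28 there was at −0.0403 with library totals, and Rps15a and Rps23 in T cell-like cells at −0.00205 and −0.00669 with doublets kept. Over all results that answer a comparison, 734 values under alternatives kept their direction and call, 43 moved and 28 reversed. With 6 libraries the exact tests cannot go below 0.0312, which limits the shares and ratios.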
